A study of Mus musculus with 23 samples.

Results

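The 10 genes described here, H19, Igf2, Meg3, Rian, Mirg, Dlk1, Peg3, Peg10, Mest and Snrpn, are imprinted genes, taken by name from the 37310 genes of the deposited RNA-seq count tables. All 10 were found by their GENCODE vM1 symbols, and all 10 passed the filter on low counts (more than 1 CPM, counts scaled to the size of the library, in at least 3 libraries), as did 14346 genes in all. The choice of these genes used no measured value of the comparison between conditions, although it was made with earlier results of these data known.

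The study asked what the zinc-finger transcription factor Zbtb11 does in mouse embryonic stem cells (ESCs), which are cultured cells of the early embryo that can form every tissue of the body. Directional, rRNA-depleted RNA-seq was done 48 h after treatment in 3 groups of 3 biological replicates, all derived from the E14 ESC line and grown without feeder cells in serum and LIF. The EtOH control and the Zbtb11 KO are both Zbtb11lox/lox Rosa26ERt2-Cre cells, the first treated with the ethanol carrier and the second with 250 nM 4-hydroxytamoxifen (4OHT), which activates the Cre recombinase made from the Rosa26 locus and deletes the floxed exon of Zbtb11. The 4OHT control is Zbtb11WT/WT Rosa26WT cells given 250 nM 4OHT. The first 2 groups thus come from 1 engineered line, obtained through colonies grown from single cells (the lox/lox line below), and the last from cells without either modification (the wt/wt line). Line, genotype and the history of the cultures cannot be told apart in any comparison with the 4OHT control, and against the EtOH control the treatment differs as well. Binding of Zbtb11 was measured by ChIP-seq with a Zbtb11 antibody in Zbtb11WT/WT cells (4 libraries) and with a FLAG antibody in Zbtb11FLAG/FLAG cells (3 libraries), all untreated.

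Imprinted genes are transcribed mainly from the copy inherited from 1 parent. The choice is carried by DNA methylation placed in the egg or the sperm at imprinting control regions, and it is read by a few proteins that keep or interpret that methylation in the embryo. ESC cultures are known for gaining or losing imprints with passage and subcloning, so that lines of the same origin can differ at these loci. The counts here sum both alleles, so they give the level of each gene and not the parental copy it came from. In such bulk samples, fewer cells that express a gene and less RNA per cell cannot be told apart.

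The H19 and Igf2 genes lie on chromosome 7 with 88673 bases between their starts (mm9, GENCODE vM1; H19, minus strand, 149761434 to 149764048; Igf2, minus strand, 149836673 to 149852721). H19 makes a non-coding RNA that restrains growth and is known to come from the maternal copy, and Igf2 makes a fetal growth factor from the paternal copy. Between them is an imprinting control region bound by the insulator protein Ctcf on the unmethylated maternal copy. A search of the 5000 bases upstream of H19 for the core of that binding site (CCGCG, any base, GG, any base and GGCAG) found 3 matches, all on the strand of H19 and all between genes. They are shown because H19 and Igf2 both differed between the lines, in opposite directions. Capitals mark the match, with 8 bases on each side, 5′ to 3′ on the minus strand.
H19 upstream, 3904 bases from the start, chr7:149767931-149767960: gggagttgCCGCGTGGTGGCAGcaaaatcg
H19 upstream, 2634 bases from the start, chr7:149766661-149766690: ggatgctaCCGCGCGGTGGCAGcatactcc
H19 upstream, 2179 bases from the start, chr7:149766206-149766235: agacgatgCCGCGTGGTGGCAGtacaatac
The core was read on both strands in the windows of the same length upstream of 37300 annotated genes, and 17 of them, or 0.0456%, held it. Windows with at least 3 matches were 2, those of H19 and of Mir675, a microRNA gene that lies inside H19. The first and the last of the printed stretches also hold TGCCGC, the hexamer recognised by Zfp57 when methylated, at a place that overlaps the core. The middle stretch does not.

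Peg10 and Sgce, on chromosome 6, are read in opposite directions from starts 102 bases apart (Peg10, plus strand, 4697306 to 4710514; Sgce, minus strand, 4624350 to 4697204), and both are known as paternally expressed genes. Peg10 encodes a retrotransposon-derived protein needed in the placenta, and Sgce encodes epsilon-sarcoglycan, a membrane protein. The sequence between the starts is shown because both genes were lower in the same libraries. It is written on the Peg10 strand, with TGCCGC in capitals.
Peg10 to Sgce, chr6:4697205-4697305: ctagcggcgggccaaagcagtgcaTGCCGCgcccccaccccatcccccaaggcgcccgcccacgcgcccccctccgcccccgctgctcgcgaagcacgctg
The hexamer, read on both strands, occurs once here and at least once in 4% of the windows of the same 101 bases upstream of 37308 annotated genes. CCGGAAG, a core bound by ETS factors, is not in this stretch and is in 3.87% of the windows. This stretch holds 13 CpGs (C followed by G, the site of DNA methylation), where the windows had a median of 2 (quartiles 0 and 7). Both motifs contain a CpG, so these shares are not those of windows equally rich in CpGs.

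Reads assigned to genes ran from 14301457 to 23876604 per library. The replicate 1 libraries of all 3 groups had the fewest reads of their group and stood apart from replicates 2 and 3 in many genes. Of all genes tested, 59.3% differed between replicate 1 and the other replicates in the fit with the replicate number as a block (edgeR quasi-likelihood test, Benjamini-Hochberg adjusted p under 0.05), so each result below is also given without replicate 1 or with the block where that changes the call. The 8 ESC markers (Pou5f1, Nanog and others) summed to 3700 to 4130 CPM in the lox/lox libraries and 4100 to 4460 in the wt/wt libraries. The summed levels of markers of other cell types were 10.4 to 16.7 CPM for 8 genes of primitive or extraembryonic endoderm, 7.07 to 8.85 for 6 of mesoderm, 4.88 to 16 for 6 of trophoblast, 17.4 to 28 for 6 of fibroblasts and 69.5 to 132 for 4 of neural cells, with overlapping ranges in the 3 groups. Prl3d1 (trophoblast) was at 0 in all groups and Postn (fibroblasts) in the 4OHT control. No ESC marker differed between the lines in the fit of all libraries (8.82% of all genes did), with 4 at an unadjusted p under 0.05. Without replicate 1, 5 did (24.3% of all genes), 3 higher and 2 lower in the wt/wt line. With the block 7 did (40.6% of all genes), 5 higher and 2 lower. Of the few tested markers of other types, 1 of 3 of endoderm (lower) and 1 of 2 of mesoderm (higher) differed between the lines in the fit of all libraries. In that fit 1 of 4 of fibroblasts (lower) and 0 of 2 each of neural cells and trophoblast differed, where 8.82% of all genes did. With the block 4 of the 4 of fibroblasts did (40.6% of all genes), 2 higher and 2 lower. The part of cell composition in the results below was not tested.

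Between the lines, 3 of the 10 imprinted genes differed with an adjusted p under 0.05 (edgeR quasi-likelihood test over all 14346 genes), 1 higher and 2 lower in the wt/wt line, where 8.82% of all genes tested differed (4.97% higher and 3.85% lower). DESeq2 called 5, where it called 13.1% of all genes. H19 was higher, and Igf2 and Peg10 were lower. Over the 10 genes the log2 fold changes had a median of -0.41, beside 0.00 over all genes tested. Without replicate 1, 6 of the 10 differed (24.3% of all genes), adding Meg3, Rian and Mirg, all lower. With the replicate number as a block, 7 differed (40.6% of all genes), adding Dlk1. The share of the members exceeded the share of all genes in each of these fits, with no test of that excess. No conclusion can be drawn from it, as the genes were chosen with earlier results of these data known. Meg3, Rian and Mirg also lie in 1 domain and varied together over the libraries, so they are not separate counts. With 2 replicates per group, 1 differed without replicate 2 (H19), where 0.303% of all genes did. Without replicate 3, 2 differed (H19 and Peg10), where 0.62% of all genes did. In 5 of the 10 genes (H19, Igf2, Meg3, Rian and Peg10) the 3 wt/wt libraries did not overlap the 6 lox/lox libraries, which held for 15.5% of all genes tested. For Meg3 and Rian the gap was very small. The highest wt/wt and lowest lox/lox libraries had 213 and 213.1 CPM for Meg3, and 415.3 and 417.6 CPM for Rian.

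**Figure D1:**
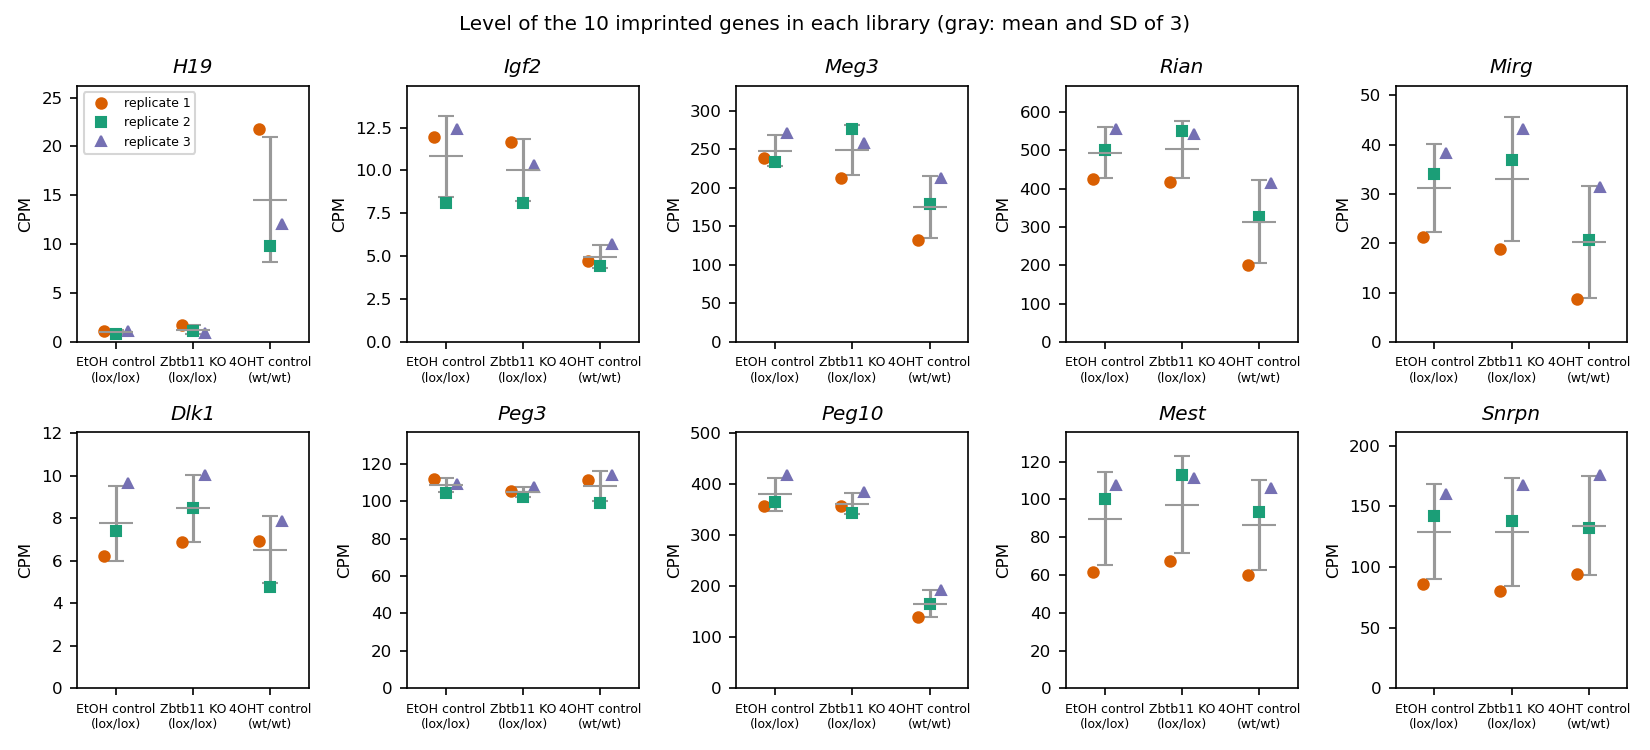
Level of each of the 10 imprinted genes in CPM (vertical axes, linear from 0) in the 9 libraries, by group, with the replicate number as colour and shape and the mean and SD of 3 libraries in gray. H19 sat at 0.77 to 1.75 CPM in the lox/lox libraries and at 9.80 to 21.8 in the wt/wt libraries, Peg10 and Igf2 were lower in the latter, and replicate 1 was the lowest library of its group for Snrpn and Mest.

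H19 was close to the floor of detection in the lox/lox line. In the EtOH control its level was 1.147, 0.77 and 1.11 CPM in replicates 1 to 3, from 22, 18 and 24 reads. The Zbtb11 KO had 1.75, 1.07 and 0.894 CPM, from 30, 22 and 18 reads. The 4OHT control had 21.8, 9.80 and 12.04 CPM, from 318, 217 and 271 reads. Every wt/wt library was above every lox/lox library by a wide margin, and the spread within the wt/wt line came from its replicate 1, the highest. The mean was 14.55 ± 6.40 CPM (SD, n = 3) in the wt/wt line and 1.12 ± 0.338 (SD, n = 6) in the lox/lox line, a 13-fold difference (log2 fold change 3.70, SE 0.29, adjusted p = 0.000127, edgeR). The fold was 11.4 without replicate 1 and 12.7 with the block. Against the EtOH control alone the log2 fold change of H19 was 3.84 (SE 0.38, adjusted p = 0.00101), and against the Zbtb11 KO it was 3.56 (SE 0.37, adjusted p = 0.00061). These comparisons share the 4OHT control libraries. With 2 replicates per group the call against the EtOH control was lost without replicate 2 (adjusted p = 0.124) and without replicate 3 (adjusted p = 0.092), and that against the KO without replicate 3 (adjusted p = 0.0549). The H19 exons share 84 bases with Mir675 on the same strand.

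Igf2 went the other way. Its level in the EtOH control was 11.9, 8.09 and 12.4 CPM, from 229, 189 and 269 reads. In the Zbtb11 KO it was 11.6, 8.10 and 10.3 CPM, and in the 4OHT control 4.74, 4.42 and 5.73 CPM, the latter from 69, 98 and 129 reads. All wt/wt libraries lay below all lox/lox libraries. The mean was 4.96 ± 0.682 CPM (SD, n = 3) against 10.4 ± 1.94 (SD, n = 6), so Igf2 was 2.09-fold lower in the wt/wt line (log2 fold change -1.06, SE 0.19, adjusted p = 0.00973, edgeR). The call was lost without replicate 2 (adjusted p = 0.105) and without replicate 3 (adjusted p = 0.151), when only 0.303% and 0.62% of all genes passed. Igf2 shares 98 exon bases with the opposite-strand gene Igf2as. Per kilobase of annotated exon, the H19 level divided by the Igf2 level was 0.2 to 0.347 in the 6 lox/lox libraries and 10.7, 5.13 and 4.86 in the wt/wt replicates 1 to 3. Igf2 was thus the more abundant of the pair in each lox/lox library and H19 in each wt/wt library.

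Peg10 was the most precisely measured of the genes that differed. The EtOH control had 357, 366 and 418 CPM, the Zbtb11 KO 357.1, 344.5 and 385 CPM, and the 4OHT control 139, 165 and 192 CPM. The 3 wt/wt libraries were below the 6 lox/lox libraries, with means of 165 ± 26.3 (SD, n = 3) and 371 ± 26.5 (SD, n = 6). Peg10 was 2.24-fold lower (log2 fold change -1.16, SE 0.11, adjusted p = 0.000367, edgeR), a call lost without replicate 2 (adjusted p = 0.0911). Sgce, on the other side of the shared start region, had 11.6, 4.88 and 6.48 CPM in the EtOH control, 11.7, 4.99 and 6.46 in the KO and 4.74, 2.12 and 2.09 in the 4OHT control. Within each replicate number its wt/wt library was the lowest. Across all libraries the log2 fold change of Sgce was -1.39 (SE 0.42, adjusted p = 0.0789), and with the block it was -1.38 (SE 0.13, adjusted p = 4.13e-08). Without replicate 1 Sgce was also lower (-1.43, SE 0.20, adjusted p = 0.000391).

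On chromosome 12, Dlk1, Meg3, Rian and Mirg lie in this order on the plus strand in 1 imprinted domain (Dlk1, 110691033 to 110701546; Meg3, 110779211 to 110809936; Rian, 110842155 to 110899919; Mirg, 110973191 to 110987665). Meg3, Rian and Mirg are non-coding RNAs of the maternal copy. Rian hosts small nucleolar RNAs and Mirg hosts a large set of microRNAs. Dlk1 is a paternally expressed membrane protein related to the Notch ligands, best known for holding back the maturation of fat cells. Silencing of Meg3 and its neighbours is a known defect of some induced pluripotent and embryonic stem cell lines. All of these RNAs were present in both lines.

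Meg3 had 239, 234 and 271 CPM in the EtOH control, 213, 277 and 257.5 in the KO, and 132, 179 and 213 in the 4OHT control. The highest wt/wt library was just below the lowest lox/lox library. The log2 fold change was -0.51 (SE 0.15, adjusted p = 0.0701) over all libraries, -0.40 (SE 0.08, adjusted p = 0.00433) without replicate 1 and -0.52 (SE 0.07, adjusted p = 6.38e-06) with the block. Rian had 424.5, 500.1 and 557 CPM there, 418, 550.2 and 542 in the KO, and 200.4, 326 and 415 in the 4OHT control. Its groups did not overlap either. The log2 fold change of Rian was -0.67 (SE 0.21, adjusted p = 0.089) over all libraries, -0.53 (SE 0.09, adjusted p = 0.00116) without replicate 1 and -0.71 (SE 0.08, adjusted p = 5.28e-07) with the block.

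Mirg had 21.3, 34.0 and 38.4 CPM in the EtOH control, 18.9, 37.0 and 43.3 in the KO, and 8.65, 20.7 and 31.5 in the 4OHT control. The groups overlapped, but within each replicate number the wt/wt library was the lowest. The log2 fold change of Mirg was -0.65 (SE 0.40, adjusted p = 0.384) over all libraries, -0.54 (SE 0.14, adjusted p = 0.014) without replicate 1 and -0.70 (SE 0.10, adjusted p = 1.17e-05) with the block. Over the 9 libraries the log2 CPM of Meg3 and Rian had a Pearson r of 0.984, that of Rian and Mirg 0.943 and that of Meg3 and Mirg 0.904. The points share libraries, groups and the replicate 1 difference, so these values only describe the pattern. Meg3 shares 1228 exon bases, 6.79% of its exon length, with the opposite-strand gene Gm17639.

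Dlk1, at a low level, had 6.20, 7.40 and 9.67 CPM in the EtOH control, 6.87, 8.48 and 10.0 in the KO, and 6.93, 4.79 and 7.86 in the 4OHT control. The groups overlapped. The log2 fold change of Dlk1 was -0.32 (SE 0.21, adjusted p = 0.434) over all libraries, -0.48 (SE 0.19, adjusted p = 0.0892) without replicate 1 and -0.34 (SE 0.12, adjusted p = 0.032) with the block. The paternally expressed neighbours Rtl1, derived from a retrotransposon, and Dio3, a thyroid hormone deiodinase, had log2 fold changes of -0.74 (SE 0.34, adjusted p = 0.236) and -0.76 (SE 0.26, adjusted p = 0.117) over all libraries. Without replicate 1 both were lower (Rtl1, -0.62, adjusted p = 0.00245; Dio3, 2-fold, adjusted p = 0.0144), as they were with the block (Rtl1, -0.77, adjusted p = 2.51e-06; Dio3, -0.79, adjusted p = 0.00588). In those fits, then, genes of the domain known from the maternal copy and genes known from the paternal copy were lower together. Of the latter, Dlk1 passed only with the block, and Dio3 was low, with a mean of 2.27 CPM in the EtOH control and 1.52 in the 4OHT control. Rtl1 lies on the minus strand between Meg3 and Rian on the plus strand, and whether the counts kept the strands apart is not known.

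Peg3, a paternally expressed zinc-finger protein on chromosome 7 (6656603 to 6683132, minus strand), was the steadiest of the 10. Its levels ran from 99.0 to 114 CPM over the 9 libraries, and the log2 fold change of Peg3 between the lines was 0.02 (SE 0.07, adjusted p = 0.915). Mest, a paternally expressed gene for a protein of the hydrolase family on chromosome 6 (30673547 to 30698457, plus strand), had 61.5, 100.4 and 107 CPM in the EtOH control, 67.5, 113 and 111 in the KO and 60.1, 93.1 and 106 in the 4OHT control. Snrpn, which encodes a protein of the splicing machinery from the paternal copy (chromosome 7, 67127388 to 67285105, minus strand), had 85.6, 142 and 159.8 in the EtOH control, 80.5, 138 and 168 in the KO and 94.1, 132 and 176 in the 4OHT control. For Mest and Snrpn the replicate 1 library was the lowest of each group, and the groups overlapped. Their log2 fold changes between the lines were -0.11 (SE 0.25, adjusted p = 0.85) for Mest and 0.06 (SE 0.28, adjusted p = 0.938) for Snrpn. Mest shares 904 exon bases, 22.96% of its exon length, with Copg2 on the opposite strand.

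**Figure D2:**
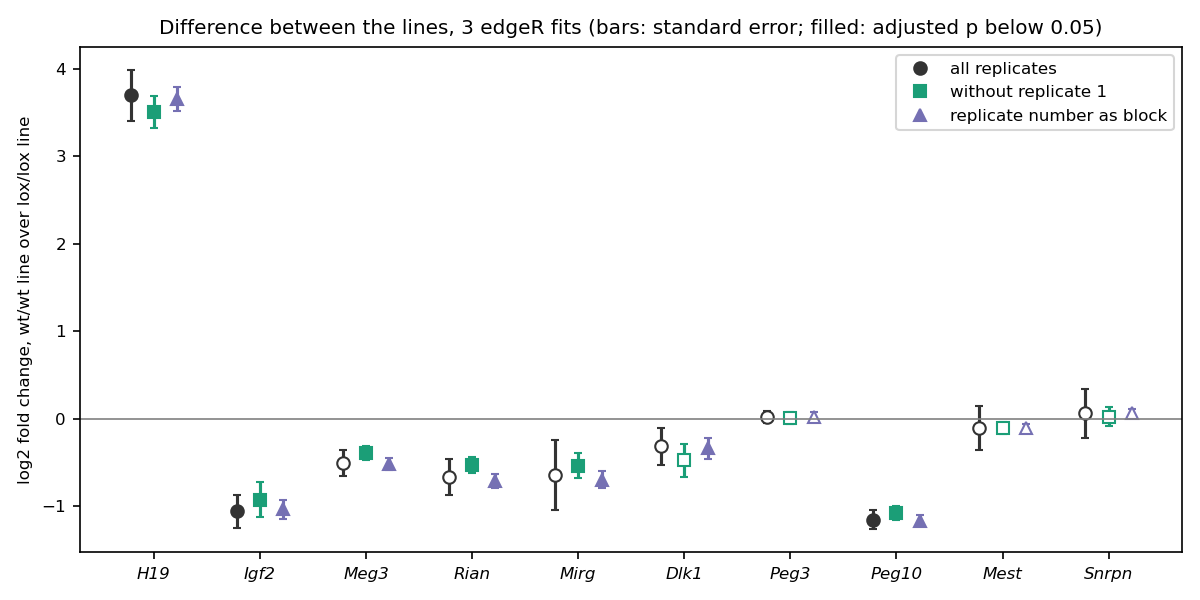
Log2 fold change of each imprinted gene, wt/wt line over lox/lox line (vertical axis), with its standard error, from 3 edgeR fits: all replicates, without replicate 1, and with the replicate number as a block. Filled symbols passed an adjusted p of 0.05. H19 stood near 3.70, Igf2 and Peg10 near -1.06 and -1.16, and Meg3, Rian and Mirg passed in the last 2 fits.

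The difference between replicate 1 and the mean of replicates 2 and 3, taken over the 3 groups in the fit with the block, was itself large for some of these genes. In the same contrast 59.3% of all genes tested passed (adjusted p under 0.05, edgeR quasi-likelihood test), so passing it is not particular to imprinted genes. Snrpn (log2 difference -0.81, SE 0.05, adjusted p = 2.8e-10), Mest (-0.74, SE 0.05, adjusted p = 3.86e-10) and Mirg (-1.07, SE 0.10, adjusted p = 3.94e-08) were lower in replicate 1. So were Rian (-0.52), Meg3 (-0.31) and Peg10 (-0.16), while H19 was higher (0.88, SE 0.14, adjusted p = 2.69e-05). Igf2 (0.21), Dlk1 (-0.26) and Peg3 (0.05) did not pass. For Snrpn, Mest and Mirg the difference between replicates was thus larger in size than that between the lines, and for H19, Igf2 and Peg10 it was smaller. This contrast was added after the data had been seen.

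The lines were also compared with each lox/lox group alone. Against the EtOH control 3 of the 10 genes differed, where 4.06% of all genes did, and against the Zbtb11 KO 3 of the 10, where 6.45% did; in both, these were H19, Igf2 and Peg10. The log2 fold change of Igf2 was -1.12 (SE 0.21, adjusted p = 0.0232) against the EtOH control and -1.01 (SE 0.21, adjusted p = 0.0244) against the KO, and that of Peg10 was -1.20 (SE 0.12, adjusted p = 0.00116) and -1.13 (SE 0.12, adjusted p = 0.000707). Without replicate 1, 5 genes passed against the EtOH control (17.1% of all genes) and 6 against the KO (18.7%), and with the block 6 (33.6%) and 8 (34.9%). The block added Meg3, Rian and Mirg in both, and Dlk1 (-0.40, adjusted p = 0.0296) and Mest (-0.17, adjusted p = 0.0201) against the KO, all lower in the 4OHT control. Without replicate 2, 0 and 1 passed in edgeR, where 3 and 3 had an unadjusted p under 0.05 and 0.0896% and 0.565% of all genes passed. Without replicate 3, 1 and 1 passed, where 0.165% and 0.785% of all genes did. Fitted with only the 6 libraries compared, 2 passed against the EtOH control (1.22% of all genes), and Igf2 did not (adjusted p = 0.0666). Both comparisons use the same 4OHT control libraries and are not independent.

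Loss of Zbtb11 within the lox/lox line moved none of the 10 genes past the threshold. Between the KO and the EtOH control, 0 of 10 passed in edgeR, where 0.899% of all genes did, 0 had an unadjusted p under 0.05, and DESeq2 called 0, where it called 1.25% of all genes. The log2 fold changes ran from -0.11 (Igf2, SE 0.21) to 0.28 (H19, SE 0.41). With the block 0 passed, and 1, Mest, had an unadjusted p under 0.05 (log2 fold change 0.12, SE 0.05, adjusted p = 0.481, edgeR). The most precise of these differences were those of Peg3 (-0.05, SE 0.08), Peg10 (-0.07, SE 0.12) and Meg3 (0.01, SE 0.17). H19, at 18 to 30 reads per library, was among the least precise, with Mirg (0.08, SE 0.44).

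Per kilobase of annotated exon the 10 genes covered a wide range. In the EtOH control Rian (60.2 ± 8.10 CPM per kb, SD, n = 3), Snrpn (58.8 ± 17.7) and Peg10 (57.1 ± 4.93) were the highest and did not differ beyond their spread. They were followed by Mest (22.8 ± 6.29), Meg3 (13.71 ± 1.115), Mirg (9.84 ± 2.79) and Peg3 (8.15 ± 0.275), of which the last pair did not differ beyond their spread. Igf2 (1.97 ± 0.434), Dlk1 (1.37 ± 0.311) and H19 (0.425 ± 0.0876) were the lowest. In the wt/wt line the order by mean was Snrpn (61.0 ± 18.6), Rian (38.3 ± 13.2), Peg10 (24.9 ± 3.95), Mest (21.9 ± 5.999), Meg3 (9.67 ± 2.25), Peg3 (8.12 ± 0.596), Mirg (6.39 ± 3.60), H19 (6.14 ± 2.70), Dlk1 (1.154 ± 0.279) and Igf2 (0.904 ± 0.124). There the means of Peg10 and Mest, of Meg3, Peg3, Mirg and H19 from each to the next, and of Dlk1 and Igf2 did not differ beyond the larger SD of the pair. H19 thus moved from the last place to the eighth, and Igf2 from the eighth to the last.

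Among the genes whose log2 CPM over the 9 libraries was most like that of H19 were Hadha (Pearson r 0.994), an enzyme of mitochondrial fatty acid oxidation, Mid1 (0.988), a ubiquitin ligase of microtubules, Myh9 (0.987), a non-muscle myosin, and Hsbp1 (0.984). Myh9, for example, had 50.4 to 58.8 CPM in the lox/lox libraries and 301, 225 and 213 in wt/wt replicates 1 to 3. Hadha moved far less, from 94.4 to 99.5 CPM in the lox/lox libraries to 114 to 120 CPM in the others. Among the genes most like Meg3 were Atad5 (0.976), Mbnl1 (0.971), Zfp626 (0.969) and Rngtt (0.969), all lower in the wt/wt libraries of the same replicate number. These values are among the highest of all genes tested and carry no test.

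Other imprinted genes were taken from a list of 55, of which 51 had a GENCODE vM1 symbol and 39 were tested. Between the lines 7 of the 39 differed (8.82% of all genes), 4 higher and 3 lower in the wt/wt line. Grb10, an adaptor that dampens insulin signalling, was 2.04-fold higher (log2 fold change 1.03, SE 0.12, adjusted p = 0.00121), with 89.8 to 108 CPM in the lox/lox libraries and 238, 159 and 206 in the wt/wt libraries. Cdkn1c, an inhibitor of the cell cycle, was 2.08-fold higher (1.06, SE 0.17, adjusted p = 0.00578) and Phlda2, which limits placental growth, 1.73-fold higher (0.79, SE 0.12, adjusted p = 0.00531). Both lie in the imprinted domain next to that of H19 and Igf2. Gnas, which encodes the stimulatory G protein alpha subunit and related products, was 1.42-fold higher (0.51, SE 0.11, adjusted p = 0.0181). Lower in the wt/wt line were the zinc-finger factor Plagl1 (-0.92, SE 0.15, adjusted p = 0.00719), the Polycomb-related gene Sfmbt2 (-0.83, SE 0.15, adjusted p = 0.00897) and the membrane proteolipid gene Nnat (-0.65, SE 0.13, adjusted p = 0.0172). Without replicate 1, 12 of 38 differed (24.3% of all genes), and with the block 20 of 39 (40.6%). Without replicate 2 there were 2 and without replicate 3 there was 1, when 0.303% and 0.62% of all genes passed.

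Part of the 10 imprinted genes and the others was then sorted by the parental copy each is usually described to come from. Of the listed genes 22 were set to the maternal copy and 26 to the paternal copy, and the rest were left out. None of the genes left out had passed in the fit of all libraries, which raises the shares that differed below. This sorting was made after the values had been seen, and it is no test. For Gnas and Grb10 the copy in use depends on promoter and tissue. Of 16 tested genes of the maternal copy 5 differed between the lines, and all 5, H19, Cdkn1c, Grb10, Phlda2 and Gnas, were higher in the wt/wt line, where 4.97% of all genes were. Of 23 tested genes of the paternal copy 5 differed, and all 5, Igf2, Peg10, Plagl1, Sfmbt2 and Nnat, were lower, where 3.85% of all genes were. The median log2 fold change was 0.145 over the first set and -0.28 over the second. Meg3, Rian and Mirg went against this split: without replicate 1, 6 of the called genes of the maternal copy were higher and 3 lower, and 1 of the paternal copy was higher and 8 lower, where 13.2% of all genes were higher and 11.1% lower. With the block, 8 of the maternal copy were higher and 5 lower, and 1 of the paternal copy was higher and 12 lower, where 21.1% of all genes were higher and 19.5% lower.

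**Figure D3:**
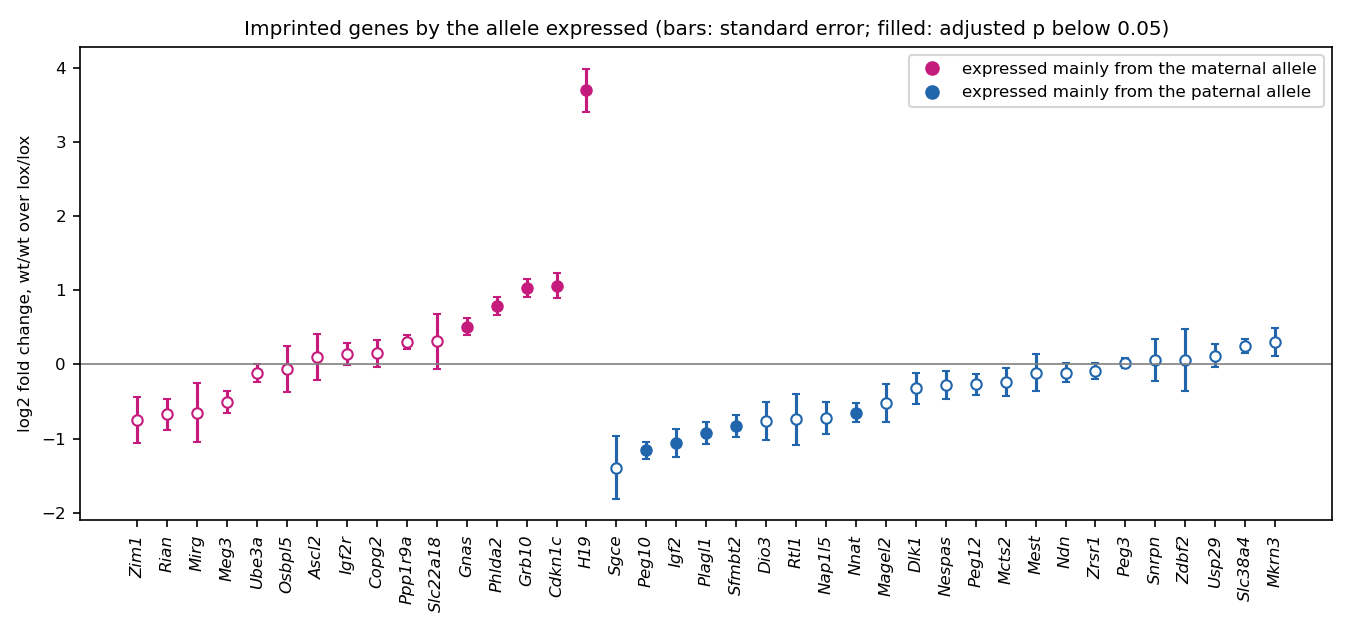
Log2 fold change, wt/wt line over lox/lox line (vertical axis), of the tested imprinted genes sorted by parental copy, with standard errors. The 2 colours mark the copy each gene is usually described to come from, and genes are ordered by size within each colour. The sorting was made after the values had been seen and is no test. Filled points passed an adjusted p of 0.05 over all libraries: 5 of the maternal copy, all above 0, and 5 of the paternal copy, all below 0.

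Between the Zbtb11 KO and the EtOH control, 0 of the 39 other imprinted genes passed in the edgeR fit of all libraries, where 0.899% of all genes did. Of the 39, 1 had an unadjusted p under 0.05, and DESeq2 called 1, where it called 1.25% of all genes. This imprinted gene was Mkrn3, a paternally expressed zinc-finger ubiquitin ligase gene without introns near Snrpn. It had 7.56, 6.50 and 6.06 CPM in the EtOH control, 4.31, 2.86 and 3.53 in the KO and 7.69, 5.64 and 4.80 in the 4OHT control, so every KO library was below every other library. The log2 fold change of Mkrn3 was -0.91 (SE 0.22, adjusted p = 0.215, edgeR), and it passed without replicate 1 (-0.98, SE 0.19, adjusted p = 0.0182) and with the block (-0.92, SE 0.14, adjusted p = 0.000271), where 1.5% and 2.25% of all genes passed.

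The proteins that keep or read imprints were measured as 7 genes. Between the lines 2 of them differed, where 8.82% of all genes did. Dppa3, which protects methylation of the maternal genome after fertilization, had 45.8 to 53.6 CPM in the lox/lox libraries and 19.8, 19.1 and 13.7 in the wt/wt libraries, a 2.87-fold lower level (log2 fold change -1.52, SE 0.13, adjusted p = 0.000225). Uhrf1, which brings the maintenance methyltransferase to replicated DNA, was 1.18-fold lower (-0.24, SE 0.05, adjusted p = 0.0211). The maintenance methyltransferase Dnmt1 had a log2 fold change of -0.19 (SE 0.05, adjusted p = 0.0707), Trim28, the corepressor bound by zinc-finger proteins, -0.16 (SE 0.19, adjusted p = 0.701), and Zfp57, which binds methylated TGCCGC, 0.13 (SE 0.26, adjusted p = 0.834). Zfp445, another imprint-binding zinc-finger protein, was at 0.11 (SE 0.15, adjusted p = 0.73) and Ctcf at 0.09 (SE 0.09, adjusted p = 0.622). With the block Dnmt1 (adjusted p = 0.00229) and Trim28 (adjusted p = 0.0182) passed too, both lower. Without replicate 1 Dnmt1 (-0.18, adjusted p = 0.0381) and Zfp57 (0.27, adjusted p = 0.0251) did, the latter higher. That made 4 of the 7 in each of these fits (40.6% and 24.3% of all genes). Without replicate 2, 0 passed (edgeR, with 2 at an unadjusted p under 0.05), where 0.303% of all genes did. Without replicate 3, 1 passed, where 0.62% of all genes did. Between the KO and the EtOH control 0 of the 7 passed in edgeR (0.899% of all genes), with 0 at an unadjusted p under 0.05. DESeq2 called 0 of the 7 (1.25% of all genes).

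Zbtb11 binding was read from the 7500 consensus peaks, those found with both antibodies. A promoter was the stretch from 2 kb upstream to 500 bases downstream of the gene start. Of the 10 imprinted genes 1, Dlk1, had such a peak at its promoter, while 28.1% of the 14346 genes tested did. The peak at Dlk1 (chromosome 12, 110691183 to 110692383) had its centre 750 bases downstream of the gene start and 38 bases from another annotated transcript start. Its coverage was 36.7, 46.5, 61.8 and 47.9 in the 4 Zbtb11 libraries (48.2 ± 10.3, SD, n = 4) and 50.7, 20.5 and 51.8 in the FLAG-Zbtb11 libraries (41.0 ± 17.8, SD, n = 3). This was below the median of all peaks, 71.3, at rank 5032 of 7500. With the peak centre required in the promoter, 0 of the 10 had a peak (25.5% of all genes). The control immunoprecipitation with the FLAG antibody in untagged cells listed 0 peaks at the 10 promoters, and 0.216% of all genes had one.

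Within Igf2 a peak lay 6360 bases downstream of the gene start (chromosome 7, 149845761 to 149846961), 749 bases downstream of an internal transcript start, so that it counted as a promoter peak when every annotated transcript start was used (2 of the 10 genes, and 31.1% of all genes tested). Its coverage was 39.7 ± 6.6 (SD, n = 4) in the Zbtb11 libraries and 32.9 ± 17.7 (SD, n = 3) in the FLAG-Zbtb11 libraries, at rank 5673. The central 300 bases of the peak are given on the Igf2 strand, with each CpG, the site of DNA methylation, in capitals. They lie in an intron of Igf2 and touch an exon of the non-coding opposite-strand gene Igf2as.
Igf2 peak centre, chr7:149846212-149846511: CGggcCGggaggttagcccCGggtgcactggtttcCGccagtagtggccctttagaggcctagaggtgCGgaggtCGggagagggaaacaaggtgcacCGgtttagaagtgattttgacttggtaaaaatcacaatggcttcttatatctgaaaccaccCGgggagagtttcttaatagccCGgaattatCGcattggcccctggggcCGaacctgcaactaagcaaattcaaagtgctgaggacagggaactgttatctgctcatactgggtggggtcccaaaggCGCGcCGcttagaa
It holds 14 CpGs, close to the median of 13 over the central 300 bases of all 7500 peaks (quartiles 6 and 26). Neither CCGGAAG, present in 29.4% of these windows, nor TGCCGC, present in 15.9%, is in it on either strand.

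Further peaks lay 18890 bases downstream of the start of Peg3, inside the gene (56.3 ± 6.2 in 4 Zbtb11 libraries, rank 4518), and upstream of Dlk1, at -5294 bases from its start (26.9 ± 19.2, rank 6690). A peak at the promoter of the neighbouring gene Zim1 was also within 10 kb of the end of Peg3, with a coverage of 143.9 ± 23.3 (SD, n = 4, rank 1931) in the Zbtb11 libraries and 32.4 ± 10.4 (SD, n = 3) in the FLAG-Zbtb11 libraries. No consensus peak lay in or within 10 kb of H19, Meg3, Rian, Mirg, Peg10, Mest or Snrpn. H19 and Peg10, which differed between the lines, and Meg3, Rian and Mirg were thus among the genes without a peak. So were Mest and Snrpn, which did not differ between the lines, while Igf2, which did, had a peak inside the gene. Of the 51 other imprinted genes 9 had a promoter peak, and all 9 were among the 39 that were tested. The count to set beside the 28.1% of all genes tested is thus 9 of 39. Among these 9 the peak of Mkrn3 was the strongest, with its centre at -32 bases from the start, at rank 328. Its coverage was 609.7 ± 181 (SD, n = 4) in the Zbtb11 libraries and 510.1 ± 129 (SD, n = 3) in the FLAG-Zbtb11 libraries. Of the 7 genes that keep or read imprints Ctcf, Dnmt1 and Uhrf1 had one (28.1% of all genes tested), and Ctcf and Uhrf1 when the peak centre had to lie in the promoter.

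**Figure D4:**
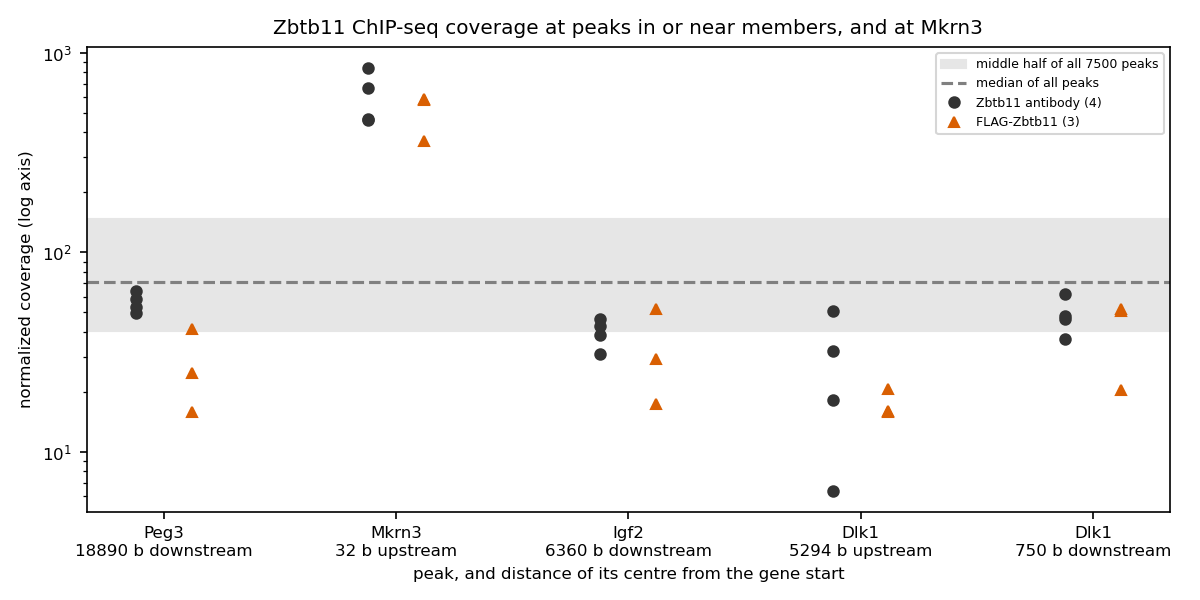
Normalised coverage (log axis) of the consensus peaks in or near the imprinted genes, other than that at the Zim1 promoter, and of the peak at the Mkrn3 promoter, in the 4 Zbtb11 (circles) and 3 FLAG-Zbtb11 (triangles) libraries, with the quartiles (gray band) and the median (dashed line) of all 7500 peaks. The mean Zbtb11 coverage at Dlk1, Igf2 and Peg3 lay below the median of 71.3, and that at Mkrn3 was above the band.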

How the data were processed

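For RNA-seq, the authors cleaned read pairs with TrimGalore and PRINSEQ before alignment by STAR, and HTSeq gave the counts per gene. ChIP-seq reads were trimmed with cutadapt and aligned with Bowtie 1.1.2, and peaks were called with MACS2 and filtered for reproducibility between replicates (mm9 and tools as in the submitters' processing notes and the study's methods). The HTSeq strand setting is not given in the sources used here, so reads of opposite-strand overlapping genes cannot be told apart. The deposited RNA-seq values were raw read counts per gene and library. The deposited coverage table held coverage signal, normalised with DiffBind, at 7500 consensus peaks in 7 ChIP-seq libraries, and the deposited peak lists held 1 set per ChIP, for all replicates together, with positions only (8957 peaks with the Zbtb11 antibody, 9350 for FLAG-Zbtb11, 274 for the FLAG control).

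From the counts, CPM was computed with TMM factors, and differences were tested with edgeR 4.0.16 (glmQLFit, glmQLFTest, R 4.3.3; two-sided) in 1 fit of all 9 libraries after the filter above 1 CPM in 3 or more libraries, with Benjamini-Hochberg adjustment over all genes tested; the script was tested on simulated data. Rows of unassigned reads (25.3% to 31.6% of reads without a feature) stayed out of the library sizes. The line comparison set the 4OHT control against the mean of both lox/lox groups. DESeq2 1.42.0, library sizes in place of TMM, other filters, a block on replicate number and the omission of each replicate were alternatives; with 1 replicate left out, the filter was more than 1 CPM in at least 2 libraries. The study's own analysis left out a distant replicate, whose number it does not give.

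Same-numbered libraries deviated together (correlation of their deviations from the group means 0.43 to 0.82 over 9 pairs, against -0.753 to 0.526 over 18 others), so the replicate numbers were taken as pairing the samples. The pairing comes from this check, not from a label. Among replicates 2 and 3 alone, same-numbered pairs ran from 0.43 to 0.685 and the others from 0.294 to 0.526. These ranges overlap, so the check sets replicate 1 apart but does not show that replicates 2 and 3 are paired.

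The named genes were all 10 members, other imprinted genes past the threshold in the line or KO comparison with the neighbours of members, 7 genes that keep or read imprints, and the 5 genes most like each of H19 and Meg3, of which some are not reported here. Members and lists were chosen with earlier results of these data known. Zbtb11 itself could not be followed, as its transcript belongs to another gene in GENCODE vM1. Sequences and exon lengths (union of exons) were read from the mm9 genome and GENCODE vM1. A search with blastn 2.17.0 found exon stretches of at least 100 bases and 95% identity shared with another gene for Igf2, Meg3 and Mest, in each case its overlapping opposite-strand gene.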

Additional observations from a re-analysis of the deposited data

Results flagged for a closer look

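The FLAG-Zbtb11 list held 1 peak inside Mest that is not a consensus peak (chromosome 6, 30686328 to 30687924, mm9), seen in data outside the comparison of promoters. Its centre lay 13579 bases downstream of the gene start and at -924 bases from an internal transcript start of Mest. The FLAG control list held 0 peaks there, and the Zbtb11 antibody list had none that was not a consensus peak in any of the 10 genes. The list gives no height, so the peak was not compared with others.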

How the results depend on the processing

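Of 350 recomputed log2 fold changes of the 10 genes 303 kept their direction and their side of the threshold, 13 lost the call, 23 gained it and 11 changed direction, all of them values that passed in neither fit. With 1 replicate left out, the log2 fold change between the KO and the EtOH control ran from -0.119 to 0.081 for Meg3, from -0.034 to 0.065 for Rian and from -0.063 to 0.015 for Snrpn. Against the EtOH control it ran from -0.044 to 0.026 for Peg3 and from -0.010 to 0.137 for Snrpn, and between the lines from -0.012 to 0.054 for Peg3. With library sizes in place of TMM, Peg3 against the EtOH control was at 0.003 and Snrpn between the KO and the EtOH control at 0.033, and the latter was at 0.001 with the filter at 5 CPM. Among counts of genes that passed, the members that differed between the lines were 5 with DESeq2 and 7 with the replicate block, and 1 to 6 with 1 replicate left out. Against the EtOH control they were 6 with the block and 0 to 5 with 1 replicate left out, and against the KO 8 with the block and 1 to 6. Other imprinted genes that differed between the lines were 20 with the block and 1 to 12 with 1 replicate left out. Between the KO and the EtOH control, 1 passed with DESeq2, 1 with the block, and 0 to 1 with 1 replicate left out. The causes were not tested, other than that leaving out a replicate leaves fewer libraries. The block changed no call of the 10 genes between the KO and the EtOH control, and its other changes are the counts given here and beside the results. Member promoters with a peak were 0 when the peak centre had to lie in the promoter and 2 when every annotated transcript start was used (chosen after seeing the data), and 1 otherwise. Leaving out 1 Zbtb11 library or using FLAG-Zbtb11 libraries moved the coverage at Dlk1 by less than 1 SD. Low read counts limit the precision of H19 in the lox/lox line and of other genes at a few CPM. The lines are represented by 1 line each, so replicates measure the spread between cultures of a line, not between lines.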

Other observations

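Ratios were taken within the chromosome 12 domain, per kilobase of exon. Rian divided by Meg3 was 3.92, 4.72 and 4.53 in the EtOH control, 4.32, 4.39 and 4.65 in the Zbtb11 KO and 3.35, 4.01 and 4.3 in the 4OHT control. The ranges of the lines overlapped, but within each replicate number the 4OHT control was the lowest, and replicate 1 was the lowest of each group. Mirg divided by Rian ran from 0.111 to 0.206, and Mirg divided by Meg3 from 0.373 to 0.957, again with replicate 1 the lowest in each group. Dlk1 divided by Meg3 ran from 0.083 to 0.168, the highest being replicate 1 of the 4OHT control. No test was made of these ratios.

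Copg2, a coat protein gene that overlaps the end of Mest on the opposite strand, had a log2 fold change between the lines of 0.15 (SE 0.18, adjusted p = 0.693) over all libraries and 0.14 (SE 0.05, adjusted p = 0.0166) with the replicate block, beside -0.11 for Mest in both fits.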
